A study of Caenorhabditis elegans with 12 samples.

Results

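The tables deposited for lin-65 and met-2 mutant embryos of Caenorhabditis elegans list 56 genes whose symbols carry the prefix of an ion channel or ionotropic receptor family, among 2949 listed genes in all. The members were taken by symbol alone (acr, lgc, glr, avr, glc, twk, kqt, kvs, shl, shk, slo, clh, del, deg, asic, acd, trp, ocr, tax and cng) from the union of the 3 tables, and 185 protein-coding genes of the annotation carry these prefixes. By gene function 55 of the 56 are channel subunits. The remaining one, tax-6, encodes the catalytic subunit of the phosphatase calcineurin and is kept because the prefix takes it in. For 80 listed identifiers no symbol was found, so a member among them would have been missed.

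Embryos of 4 strains were used, each with 3 libraries, which are independent biological replicates per the labels: the lin-65 met-2 double mutant, a lin-65 deletion mutant, the met-2(n4256) mutant and the N2 wild type. MET-2 is a histone methyltransferase that acts on lysine 9 of histone H3, a mark of silent chromatin, and LIN-65 is known as a nuclear partner of MET-2. All strains were grown at 20 °C for 60 to 65 h, and the collected early embryos held between 1 and 300 cells, so each library pools embryos of many ages and all of their cell types. In such bulk RNA, more cells of a type and more RNA per cell cannot be told apart. Every value is a log2 ratio of 1 mutant library to a baseline that no header names. The values themselves point to N2: lin-65 stood at -6.27, -5.86 and -5.98 in lin-65 met-2 libraries and at -5.90, -5.97 and -5.78 in lin-65 libraries, against -0.26, -0.21 and -0.18 in met-2 libraries. The met-2 gene stood at -2.73, -2.71 and -2.82 in lin-65 met-2 libraries and at -2.32, -2.39 and -2.35 in met-2 libraries, against 0.07, -0.08 and -0.07 in lin-65 libraries. Both targeted genes thus fit the strain labels. A value of 1 is a 2-fold excess over the baseline, written below as above N2. No N2 library has a column, so the level in N2, the spread of N2 and the sequencing depth are unknown, and values against N2 are described without a test. All 3 mutants share that baseline.

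Ion channels are membrane proteins that open a pore for selected ions. Ligand-gated families (acr, lgc, glc, glr) open when acetylcholine, glutamate, amines or other transmitters bind, whereas potassium channels (twk, kqt, shk, shl, slo) set the resting potential and end action potentials. DEG/ENaC channels (del, asic, acd) pass sodium and respond to touch, acid or peptides. In the worm these genes are best known from differentiated neurons, muscle, intestine and sensory cells, which the early embryo is only beginning to form.

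Nearly the whole set stood above N2, and most strongly in the double mutant, where 54 of 56 members did so in every library. A mean of at least 1 was reached by 53 of the 56 members in lin-65 met-2 embryos, 15 in lin-65 embryos and 37 in met-2 embryos. Among all listed genes the shares past that limit were 85.8% in lin-65 met-2, 36.3% in lin-65 and 68.3% in met-2. This contrast with N2 is the one the authors selected genes on, so nothing is read from those counts. A mean of at least 2, which is 4-fold, was reached by 10 members in lin-65 met-2 (21.7% of all listed genes), 2 in lin-65 (1.66%) and 4 in met-2 (9.7%). The tables themselves named 54 members for lin-65 met-2 (89.5% of all listed genes are in that table), 13 for lin-65 (33%) and 33 for met-2 (65.8%). At the 2-fold edge of the lin-65 met-2 table, glc-2 and lgc-34 stood just inside at 1.01 and 1.01, while asic-1 at 0.65 and twk-46 at -0.37 were left out.

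The median member was 2.82-fold above N2 in lin-65 met-2 embryos, 1.72-fold in lin-65 embryos and 2.25-fold in met-2 embryos, which are log2 medians of 1.50, 0.78 and 1.17. Over all listed genes the medians were 1.47, 0.83 and 1.20 in the same order of strains, so the channel genes sat close to the listed genes as a whole. Per library, the member median was 1.47, 1.57 and 1.54 in lin-65 met-2, 0.75, 1.04 and 0.70 in lin-65, and 1.56, 1.07 and 1.06 in met-2. Replicate 1 of met-2, the first met-2 library below, stood apart from the other met-2 libraries: it held the highest of the 3 met-2 values for 49 of 56 members (83.5% of all listed genes). The median SD of a member was 0.138 in lin-65 met-2, 0.203 in lin-65 and 0.347 in met-2.

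**Figure D1:**
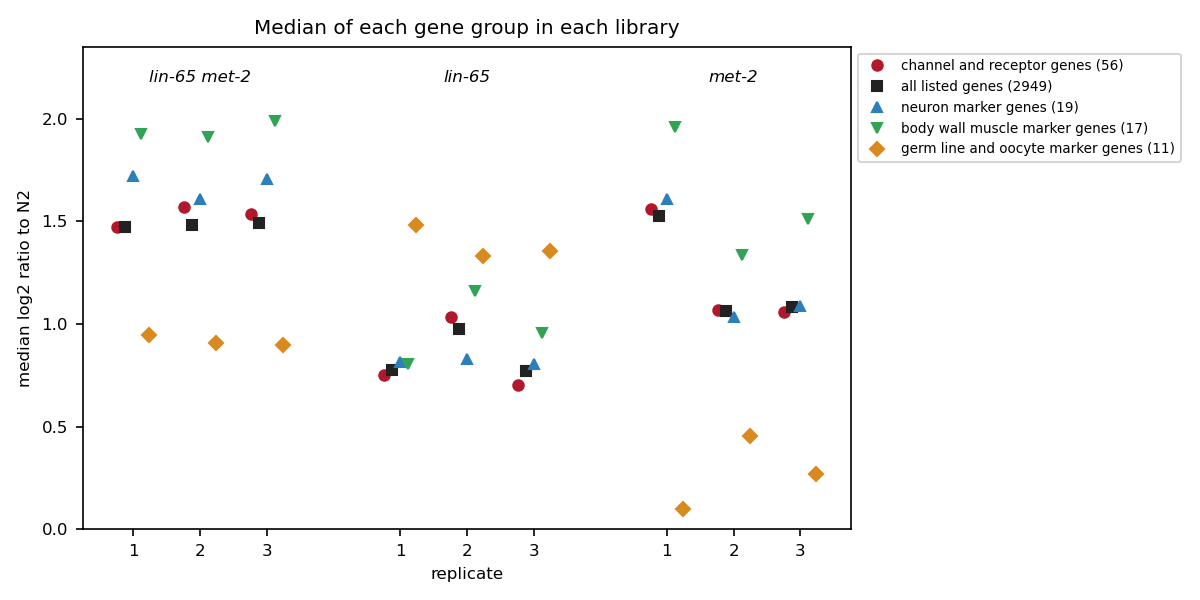
Median log2 ratio to N2 in each of the 9 mutant libraries for the 56 channel and receptor genes, all 2949 listed genes, and marker genes of neurons, body wall muscle and the germ line and oocyte. The channel genes follow the listed genes in every library, the first met-2 library reaches the level of the lin-65 met-2 libraries, and the germ line and oocyte markers take another order.

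Marker genes of differentiated cells moved with the channel genes across libraries, and so did the listed genes as a whole. The medians of all listed genes were 1.47, 1.48 and 1.49 in lin-65 met-2, 0.78, 0.97 and 0.77 in lin-65, and 1.53, 1.06 and 1.08 in met-2. Only markers in the authors' tables have values, and every listed neuronal, body wall muscle and intestinal marker is in the lin-65 met-2 table. No link particular to a cell type is read from this. Of 30 neuronal markers 19 were listed, with medians of 1.72, 1.61 and 1.71 in lin-65 met-2 libraries, 0.81, 0.83 and 0.80 in lin-65 libraries, and 1.61, 1.04 and 1.09 in met-2 libraries. Of 22 body wall muscle markers 17 were listed, with medians of 1.93, 1.91 and 1.99 in lin-65 met-2, 0.80, 1.16 and 0.96 in lin-65, and 1.96, 1.34 and 1.51 in met-2. The 9 of 21 intestinal markers with values had library medians of 2.11, 2.09 and 1.99 in lin-65 met-2, 0.64, 0.77 and 0.82 in lin-65, and 2.15, 1.42 and 1.53 in met-2. The markers with values include unc-17 and unc-25 for transmitter synthesis and unc-54 for the muscle myosin heavy chain. Others on the same lists have no value, so the medians leave them out. Among these are unc-119 and snb-1 for neurons, hlh-1 for body wall muscle, and elt-2, ges-1, end-1 and end-3 for the intestine. Germ line and oocyte markers took another order, with 11 of 25 listed and medians of 0.94, 0.91 and 0.90 in lin-65 met-2, 1.48, 1.33 and 1.36 in lin-65, and 0.10, 0.45 and 0.27 in met-2. All 11 are in the lin-65 table and 0 are in the met-2 table, so selection favours this order. The part of these cell types, or of embryo age, in the channel values was not tested.

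**Figure D2:**
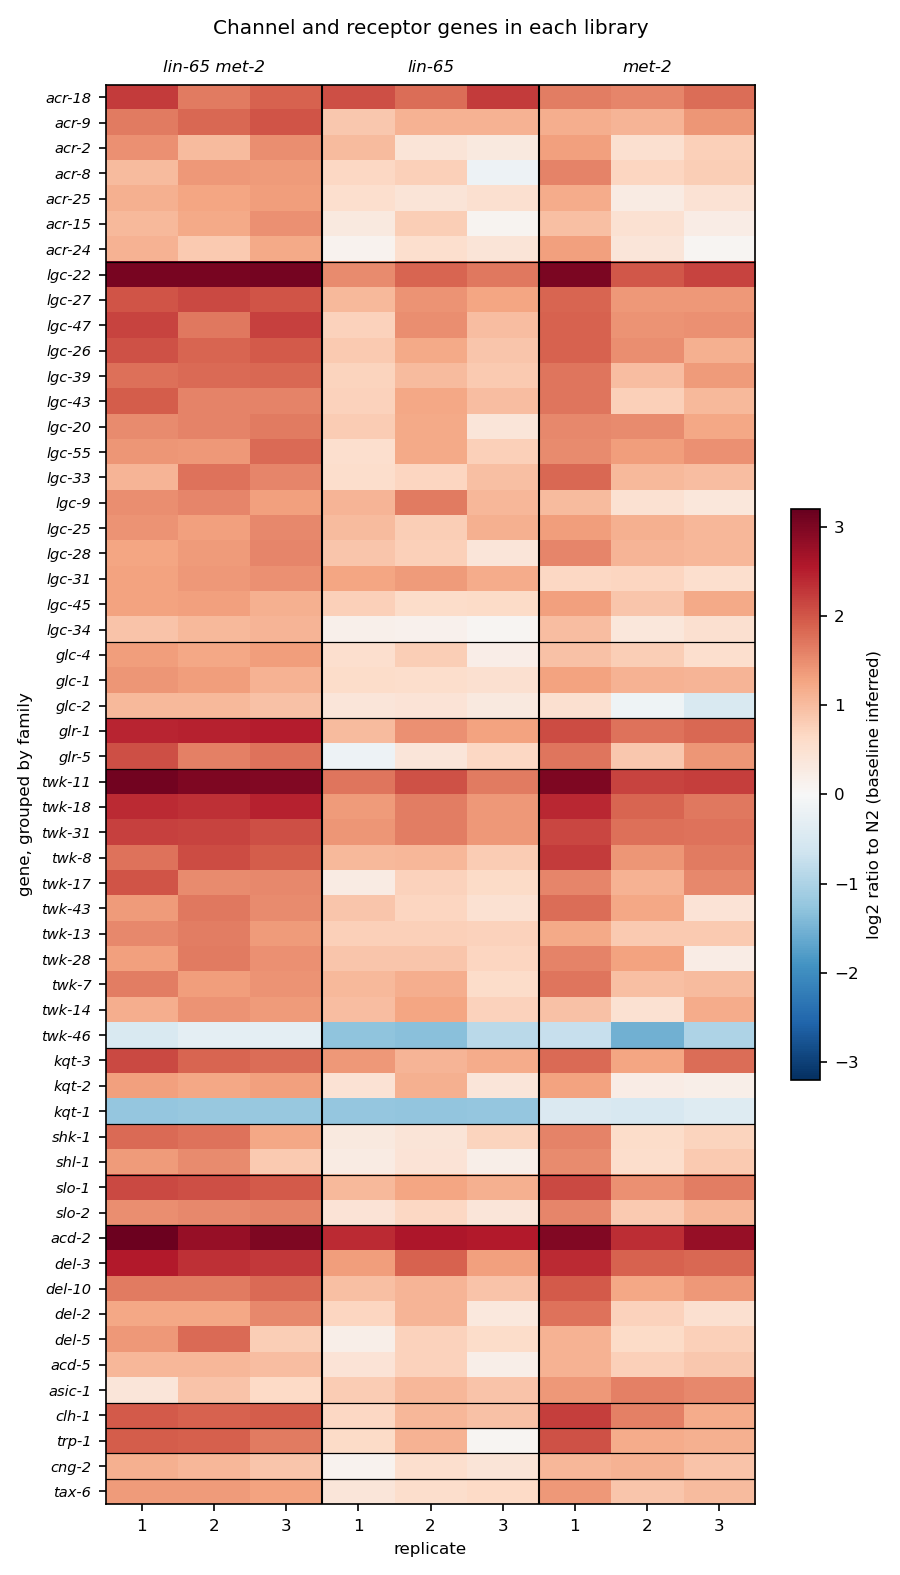
Log2 ratio to N2 of each of the 56 members (rows, grouped by family) in each of the 9 mutant libraries (columns, lin-65 met-2, then lin-65, then met-2). Nearly every row is above 0 and strongest in lin-65 met-2, and the rows of kqt-1 and twk-46 lie below 0 in every library.

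The acetylcholine receptor subunits were represented by 7 of 21 annotated acr genes. Their family medians were 1.25 in lin-65 met-2, 0.48 in lin-65 and 0.86 in met-2. The strongest, acr-18, stood at 2.24, 1.66 and 1.88 in lin-65 met-2, 2.06, 1.78 and 2.24 in lin-65, and 1.65, 1.57 and 1.78 in met-2. The lin-65 met-2 libraries overlapped those of both single mutants. The lowest lin-65 library and the highest met-2 library met at 1.78, and the gene was called in none of the 3 contrasts between mutants. The weakest on average, acr-24, stood at 1.11, 0.83 and 1.21 in lin-65 met-2, 0.10, 0.54 and 0.42 in lin-65, and 1.31, 0.38 and 0.07 in met-2. For acr-15 the values were 1.04, 1.22 and 1.46 in lin-65 met-2, 0.32, 0.78 and 0.08 in lin-65, and 0.97, 0.49 and 0.25 in met-2, so every lin-65 met-2 library exceeded every library of both single mutants. The others, in order of their lin-65 met-2 mean, were acr-9 at 1.84, acr-2 at 1.33, acr-8 at 1.25 and acr-25 at 1.24. Of these, acr-2 encodes a non-alpha subunit of cholinergic motor neurons and acr-8 an alpha subunit of the levamisole receptor clade.

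With 15 of 56 annotated genes, the lgc genes were the largest group. They are a diverse set of cys-loop channels, several of them gated by amines or acetylcholine, and their medians were 1.53 in lin-65 met-2, 0.97 in lin-65 and 1.29 in met-2. The highest member of the group, lgc-22, stood at 3.03, 3.03 and 3.05 in lin-65 met-2, 1.50, 1.85 and 1.68 in lin-65, and 3.01, 1.99 and 2.17 in met-2. In the double mutant it was 8.2-fold above N2 with an SD of 0.02, and only the first met-2 library came near those values. At the other end, lgc-34 stood at 0.91, 1.05 and 1.08 in lin-65 met-2, 0.16, 0.14 and 0.05 in lin-65, and 0.98, 0.35 and 0.50 in met-2. The members between them had lin-65 met-2 means of 2.05 for lgc-27, 2.02 for lgc-47, 1.95 for lgc-26, 1.80 for lgc-39, 1.71 for lgc-43, 1.59 for lgc-20 and 1.53 for lgc-55. Below these came lgc-33 at 1.46, lgc-9 at 1.45, lgc-25 at 1.44, lgc-28 at 1.40, lgc-31 at 1.38 and lgc-45 at 1.25. Among them lgc-55 encodes a tyramine-gated chloride channel, lgc-39 a channel opened by acetylcholine and monoamines, and lgc-47 a member of the acetylcholine-gated chloride channel group.

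Glutamate-gated chloride channels, the targets of ivermectin, were represented by 3 of 4 annotated glc genes, with medians of 1.29 in lin-65 met-2, 0.52 in lin-65 and 0.75 in met-2. The values of glc-1 were 1.42, 1.34 and 1.12 in lin-65 met-2, 0.59, 0.57 and 0.50 in lin-65, and 1.28, 1.10 and 1.09 in met-2, while glc-4 averaged 1.31 in lin-65 met-2. In contrast, glc-2 stood at 1.04, 1.04 and 0.94 in lin-65 met-2, 0.40, 0.44 and 0.32 in lin-65, and 0.52, -0.14 and -0.49 in met-2. It lay above N2 in every lin-65 met-2 and lin-65 library and on both sides of N2 in met-2. No avr gene, the other prefix of this family, was listed.

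Of the 8 ionotropic glutamate receptor genes named glr, 2 were listed. The AMPA-type subunit gene glr-1, known from the command interneurons that drive forward and backward movement, stood at 2.43, 2.45 and 2.51 in lin-65 met-2, 1.01, 1.46 and 1.28 in lin-65, and 2.10, 1.73 and 1.84 in met-2. The 3 strains did not overlap. A second non-NMDA subunit gene, glr-5, stood at 2.06, 1.61 and 1.74 in lin-65 met-2, -0.17, 0.38 and 0.66 in lin-65, and 1.72, 0.87 and 1.41 in met-2. Its lin-65 libraries lay around N2, and its met-2 libraries overlapped those of the double mutant.

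Two-pore potassium channels, which pass a background current that holds cells at rest, were represented by 11 of 44 annotated twk genes, with medians of 1.52 in lin-65 met-2, 0.94 in lin-65 and 1.23 in met-2. The highest, twk-11, stood at 3.09, 2.99 and 2.95 in lin-65 met-2, 1.72, 2.03 and 1.65 in lin-65, and 2.98, 2.16 and 2.22 in met-2. For twk-17 the values were 2.02, 1.52 and 1.54 in lin-65 met-2, 0.25, 0.75 and 0.61 in lin-65, and 1.56, 1.10 and 1.54 in met-2. For twk-8 they were 1.74, 2.09 and 1.95 in lin-65 met-2, 1.04, 1.06 and 0.81 in lin-65, and 2.25, 1.42 and 1.66 in met-2. In both genes the lin-65 libraries lay below every other library, and met-2 overlapped lin-65 met-2. Other members had lin-65 met-2 means of 2.39 for twk-18, a body wall muscle channel, 2.13 for twk-31, 1.52 for twk-43, 1.51 for twk-13, 1.48 for twk-28, 1.47 for twk-7 and 1.33 for twk-14. The exception in sign was twk-46, at -0.50, -0.32 and -0.30 in lin-65 met-2, -1.28, -1.33 and -0.86 in lin-65, and -0.75, -1.55 and -0.99 in met-2. Although it is held by the authors' tables for lin-65 and met-2, which are named for genes that are up, it lay below N2 in every library, and every lin-65 met-2 library was higher than every single-mutant library.

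All 3 annotated kqt genes, which encode KCNQ-type voltage-gated potassium channels, were listed, and they did not share a direction. The values of kqt-3 were 2.11, 1.87 and 1.80 in lin-65 met-2, 1.39, 1.08 and 1.19 in lin-65, and 1.82, 1.27 and 1.79 in met-2. Below N2 in every library was kqt-1, at -1.24, -1.20 and -1.22 in lin-65 met-2, -1.23, -1.27 and -1.23 in lin-65, and -0.45, -0.50 and -0.40 in met-2. The SD was 0.02 in lin-65 met-2, 0.02 in lin-65 and 0.05 in met-2. Each library without lin-65 lay well below each met-2 library. Like twk-46, kqt-1 is held by tables named for genes that are up, here those for lin-65 met-2 and lin-65. The mean of kqt-2 was 1.29 in lin-65 met-2, 0.67 in lin-65 and 0.56 in met-2.

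The remaining voltage-gated and calcium-activated potassium channels followed the common order of strains. The Shaker-type gene shk-1 stood at 1.81, 1.74 and 1.24 in lin-65 met-2, 0.30, 0.42 and 0.71 in lin-65, and 1.58, 0.59 and 0.72 in met-2. The Kv4-type gene shl-1, which encodes a transient potassium current, stood at 1.36, 1.50 and 0.84 in lin-65 met-2, 0.26, 0.45 and 0.19 in lin-65, and 1.50, 0.56 and 0.85 in met-2. In both, the lin-65 libraries lay below every lin-65 met-2 library, whereas the met-2 libraries spread widely. The BK channel gene slo-1, which couples calcium to potassium flow at synapses and in muscle, stood at 2.11, 2.05 and 1.97 in lin-65 met-2, 1.04, 1.27 and 1.13 in lin-65, and 2.11, 1.47 and 1.64 in met-2. Its relative slo-2 stood at 1.49, 1.54 and 1.60 in lin-65 met-2, 0.43, 0.67 and 0.40 in lin-65, and 1.56, 0.84 and 1.06 in met-2. No kvs gene was listed.

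Among DEG/ENaC channels 7 of 18 annotated genes were listed. The highest was acd-2, at 3.13, 2.79 and 2.99 in lin-65 met-2, 2.38, 2.58 and 2.55 in lin-65, and 2.95, 2.36 and 2.79 in met-2. With 7.84-fold in lin-65 met-2, 5.67-fold in lin-65 and 6.5-fold in met-2 it was far above N2 in all mutants, and it had the highest member mean in both single mutants. The proton-sensitive channel gene acd-5, known from the intestine, stood at 1.05, 1.06 and 1.00 in lin-65 met-2, 0.44, 0.74 and 0.20 in lin-65, and 1.10, 0.75 and 0.86 in met-2. The dopaminergic neuron channel gene asic-1 took the opposite course, at 0.39, 0.92 and 0.63 in lin-65 met-2, 0.81, 1.07 and 0.91 in lin-65, and 1.39, 1.60 and 1.54 in met-2, and it was the only member in the met-2 table alone. The others had lin-65 met-2 means of 2.39 for del-3, 1.72 for del-10, 1.33 for del-2 and 1.32 for del-5.

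Single members stood for the last families. The chloride channel gene clh-1 was at 1.97, 1.88 and 1.94 in lin-65 met-2, 0.66, 1.05 and 0.94 in lin-65, and 2.20, 1.61 and 1.20 in met-2. The TRPC channel gene trp-1 was at 1.94, 1.92 and 1.67 in lin-65 met-2, 0.61, 1.11 and 0.06 in lin-65, and 2.03, 1.20 and 1.15 in met-2. Both were lower in every lin-65 library than in any other library. The cyclic nucleotide-gated channel gene cng-2 was at 1.14, 1.05 and 0.88 in lin-65 met-2, 0.11, 0.54 and 0.41 in lin-65, and 1.06, 1.12 and 0.92 in met-2. The calcineurin gene tax-6 was at 1.35, 1.36 and 1.28 in lin-65 met-2, 0.39, 0.56 and 0.64 in lin-65, and 1.38, 0.89 and 1.00 in met-2. For cng-2 the means of the double mutant and of met-2 were 1.02 ± 0.14 and 1.03 ± 0.11 (SD, n = 3 each). No deg or ocr gene was listed.

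Between mutants the shared baseline drops out, and differences were tested with limma, a linear model fitted to all 2949 genes and 9 libraries at once, with p-values adjusted by the Benjamini-Hochberg method over all genes and a gene called at an adjusted p under 0.05. The 3 contrasts share libraries and are not independent of each other. Comparing the double mutant with lin-65 asks what loss of met-2 adds to loss of lin-65. Of the 56 members 50 were called higher in lin-65 met-2 than in lin-65, beside 74.3% of all listed genes, and 0 lower, beside 4.61%. At an unadjusted p under 0.05 the count of lower members was also 0. Selection favours this direction, since 42 members are in the lin-65 met-2 table and not the lin-65 table and 41 of the 50 calls are theirs, so the count describes the listed genes and supports nothing further. Among the 12 members held by both tables, the calls numbered 8. The median member difference was 0.77, against 0.70 over all listed genes. The largest was that of glr-5, at 1.51 (SE 0.24, limma adjusted p = 6.87e-05), followed by lgc-22 at 1.35 (SE 0.22, adjusted p = 9.92e-05), trp-1 at 1.25 (SE 0.26, adjusted p = 0.000557) and glr-1 at 1.21 (SE 0.18, adjusted p = 4.11e-05). In each of these genes every lin-65 met-2 library exceeded every lin-65 library. By family, 6 of 7 acr, 13 of 15 lgc, 3 of 3 glc, 2 of 2 glr, 10 of 11 twk and 6 of 7 DEG/ENaC genes were called higher, along with both slo genes, shk-1, shl-1, kqt-2, kqt-3, clh-1, trp-1, cng-2 and tax-6. The 6 not called were acr-18, asic-1, kqt-1, lgc-9, lgc-31 and twk-14.

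These calls depend on how libraries are placed on one scale. Setting each library's median over the listed genes to 0 takes the median difference of all listed genes to 0.06 from 0.70. Then 8 members were higher in lin-65 met-2 than in lin-65, beside 21.6% of all listed genes, and 5 were lower, beside 16.5%. The 8 were glr-5 (0.87), lgc-22 (0.71), trp-1 (0.61), glr-1 (0.57), twk-11 (0.57), twk-17 (0.51), slo-2 (0.40) and lgc-39 (0.31), so they exceeded the lin-65 level by more than the listed genes did as a whole. The 5 lower were asic-1 (-0.92), acr-18 (-0.74), kqt-1 (-0.62), lgc-31 (-0.54) and lgc-9 (-0.46). On that scale the family medians of the difference stayed above 0 except for the kqt genes at -0.03 and the DEG/ENaC genes at -0.01. Because the listed genes were selected for standing off N2, equal medians can also remove a true general difference between mutants, and which scale is right was not tested.

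Comparing the double mutant with met-2 asks what loss of lin-65 adds to loss of met-2. Here few channel genes were called: 9 of 56 were higher in lin-65 met-2 than in met-2 (background 11.8% of listed genes), 2 were lower (4.92%) and 45 were not called, although the difference was above 0 in 53. The higher ones were glc-2 at 1.04 (SE 0.21, limma adjusted p = 0.00382), lgc-9 at 0.84 (SE 0.21, adjusted p = 0.0152), lgc-31 at 0.75 (SE 0.16, adjusted p = 0.00644), twk-46 at 0.72 (SE 0.21, adjusted p = 0.0292), acr-15 at 0.67 (SE 0.22, adjusted p = 0.0462), and with smaller differences acr-9, glr-1, glc-4 and twk-13. Selection favours these calls too: 7 of the 9 are in the lin-65 met-2 table and not the met-2 table, and all but glr-1 and twk-46 are among them. It favours the call of twk-46 as well. The met-2 table holds twk-46, which lay below N2, and the lin-65 met-2 table does not. In glc-2, acr-15, acr-9, glc-4 and twk-13 the lin-65 met-2 table is the only one that holds the gene. The lower ones were asic-1 at -0.86 (SE 0.18, adjusted p = 0.00447) and kqt-1 at -0.77 (SE 0.16, adjusted p = 0.00421). Selection favours both of these calls. The met-2 table holds asic-1 and the lin-65 met-2 table does not. For kqt-1, which lay below N2, the lin-65 met-2 table holds the gene and the met-2 table does not. The median difference was 0.39 over members and 0.32 over all listed genes. The count of higher members rests on the first met-2 library: without it 40 members were called higher, among 59.7% of all listed genes, and 2 lower, among 6.71%. In contrast, 2 were called higher when any 1 lin-65 met-2 library was left out and 3 without replicate 2 or 3 of met-2. The shares of all listed genes were 3.15%, 2.61% and 2.10% without replicates 1, 2 and 3 of lin-65 met-2. They were 3.46% and 2.31% without replicates 2 and 3 of met-2. The calls of glc-2, asic-1 and kqt-1 were made whichever library was left out. That of lgc-31 was lost without replicate 3 of lin-65 met-2 (limma adjusted p = 0.0546), that of lgc-9 without replicate 1 or 2 of lin-65 met-2 or replicate 3 of met-2 (0.0509, 0.0707 and 0.083), that of twk-46 with 5 of the 9 libraries left out in turn, that of acr-15 with 6 and that of glr-1 with 6. With library medians made equal 3 were higher, glc-2 (0.78), lgc-9 (0.58) and lgc-31 (0.49), and the same 2 were lower, asic-1 (-1.12) and kqt-1 (-1.03). Of all listed genes 4.85% were then higher and 9.22% lower.

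Setting one single mutant against the other, 26 of 56 members were lower in lin-65 than in met-2 (background 41.9%) and 2 were higher (4.92%), with a median difference of -0.49 over members and -0.42 over all listed genes. The largest falls were those of glr-5 at -1.04 (SE 0.24, limma adjusted p = 0.00233), trp-1 at -0.87 (SE 0.26, adjusted p = 0.0125), twk-17 at -0.86 (SE 0.20, adjusted p = 0.0029), twk-8 at -0.80 (SE 0.21, adjusted p = 0.0052) and kqt-1 at -0.79 (SE 0.16, adjusted p = 0.000876). Of the 26, 16 are in the met-2 table and not the lin-65 table, 5 in both, 4 in neither and 1, kqt-1, in the lin-65 table and not the met-2 table. Selection favours the calls of those 16. It also favours that of kqt-1, which lay below N2. Higher were lgc-9 at 0.65 (SE 0.21, adjusted p = 0.0183) and lgc-31 at 0.64 (SE 0.16, adjusted p = 0.00511), both of them in the lin-65 table and not the met-2 table. The 7 acr genes were not called, with limma adjusted p from 0.065 for acr-8 to 0.55 for acr-25. The lgc genes gave 8 lower and 2 higher, the twk genes 4 lower, and both glr and both slo genes were lower. On the scale of equal medians 3 members remained lower, glr-5, kqt-1 and twk-8, and 4 were higher, lgc-9 (1.04), lgc-31 (1.03), glc-2 (0.81) and acr-18 (0.74). Of all listed genes 17.7% were lower and 12.4% higher on that scale. The median difference of the acr genes then turned to 0.19 from -0.19, and that of the glc genes to 0.15 from -0.23. The count of lower members fell to 10 without the first lin-65 library, 11 without the third and 15 without the first met-2 library. Among the named calls, trp-1 was lost without replicate 3 of lin-65 (limma adjusted p = 0.0863) or replicate 1 of met-2 (0.0796), and lgc-9 without replicate 2 of lin-65 (0.0893) or replicate 3 of met-2 (0.07), while those of glr-5, twk-17, twk-8, kqt-1 and lgc-31 were made whichever library was left out.

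**Figure D3:**
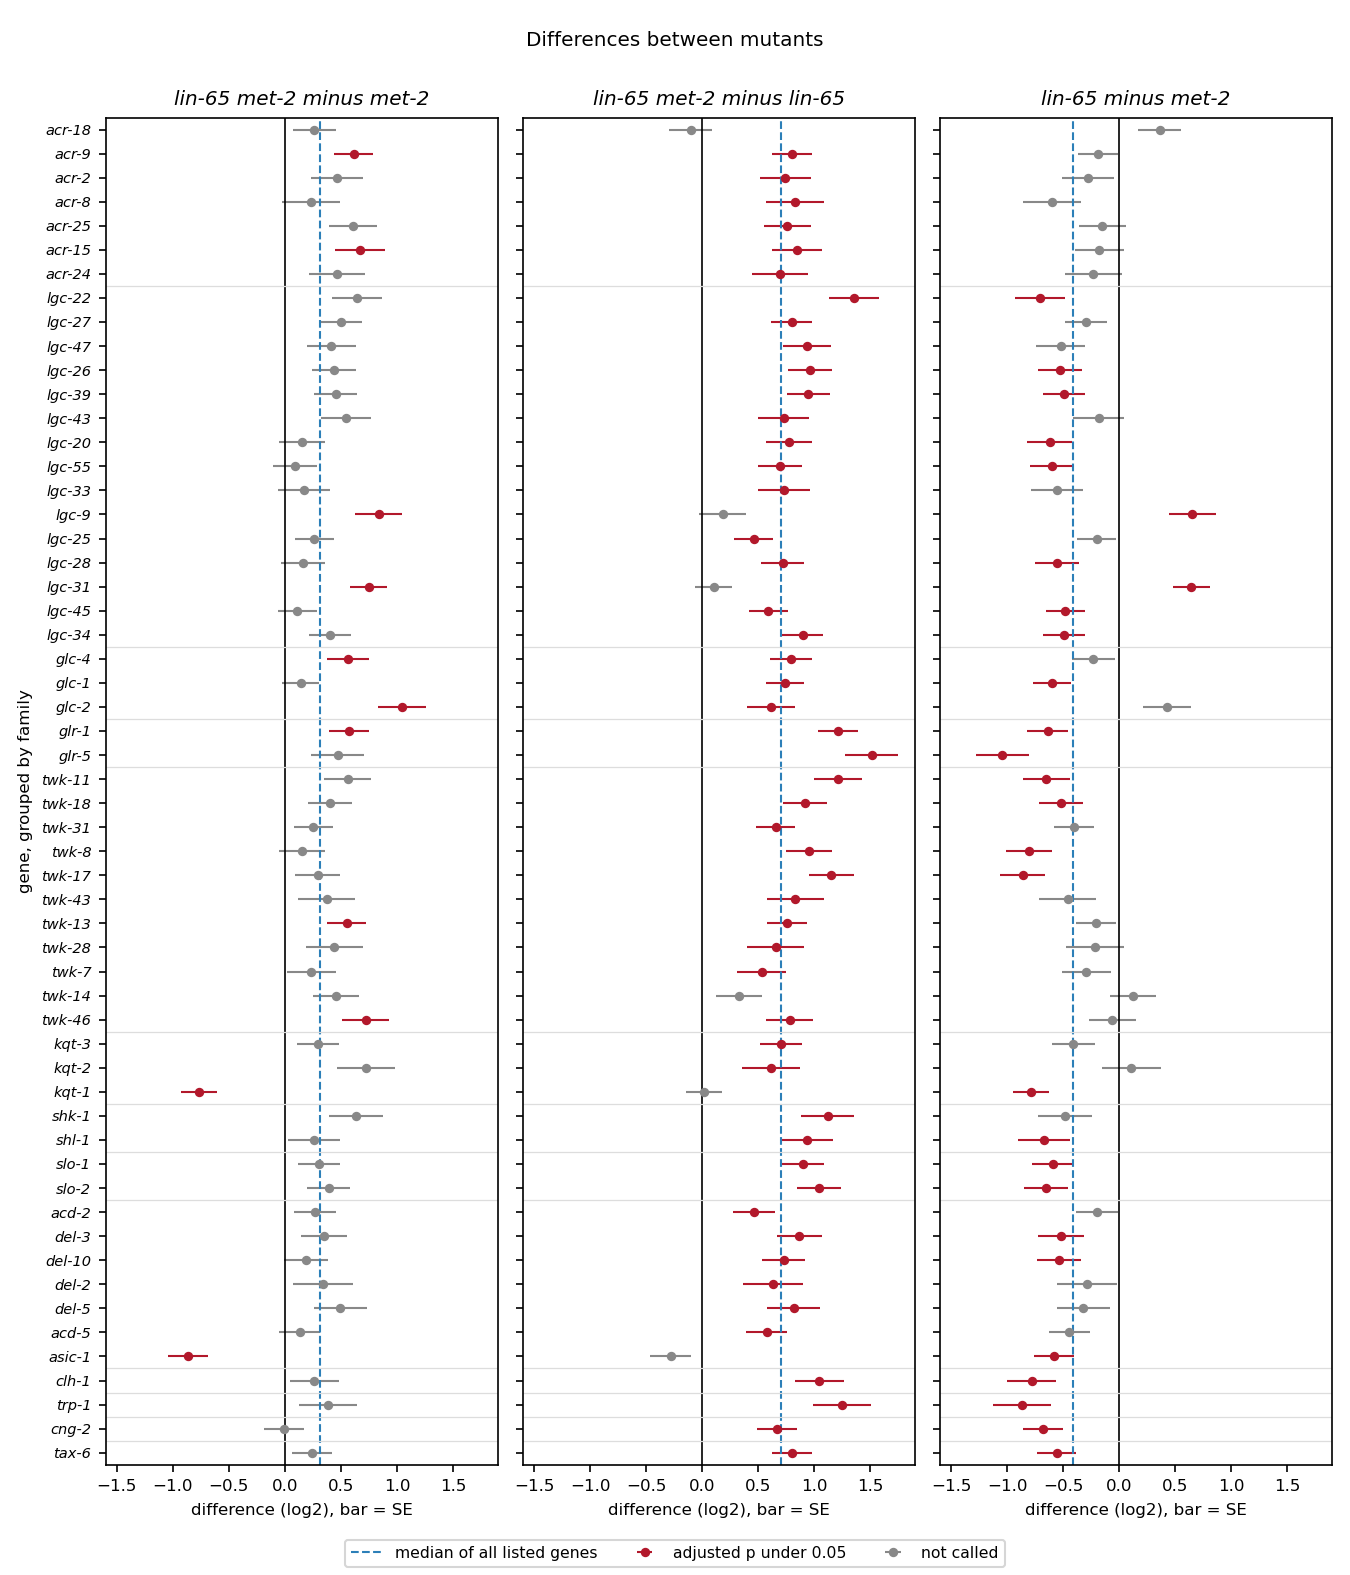
Difference in log2 value for each member, with its SE, for lin-65 met-2 minus met-2, lin-65 met-2 minus lin-65 and lin-65 minus met-2, on the deposited scale. Red points passed an adjusted p under 0.05 and the dashed line is the median of all listed genes, around which most members lie; lgc-9, lgc-31, kqt-1, asic-1 and glc-2 stand away from it, and with equal library medians most of the other calls were not made.

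In 47 of 56 members the strain means ran lin-65 met-2 above met-2 above lin-65, an order held by 70.4% of all listed genes. The 9 exceptions were acr-18, asic-1, cng-2, glc-2, kqt-1, kqt-2, lgc-9, lgc-31 and twk-14. Of these kqt-2 and twk-14 were singled out after their values were seen. The ligand-gated channel genes lgc-9 and lgc-31 shared 1 pattern, with both strains that lack lin-65 above met-2. The values of lgc-9 were 1.48, 1.56 and 1.32 in lin-65 met-2, 1.09, 1.66 and 1.07 in lin-65, and 1.01, 0.49 and 0.35 in met-2. Those of lgc-31 were 1.28, 1.38 and 1.47 in lin-65 met-2, 1.26, 1.36 and 1.20 in lin-65, and 0.67, 0.69 and 0.53 in met-2. In both genes every lin-65 library exceeded every met-2 library. The library medians of the germ line and oocyte markers given above did so too, and all 11 of these markers were called higher in lin-65 than in met-2. Selection favours this direction, since all 11 markers, lgc-9 and lgc-31 are in the lin-65 table and not the met-2 table. Nothing is read from the shared direction. The part of germ line or maternal RNA in these 2 channel genes was not tested.

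The opposite pattern, lowest where lin-65 is missing, was seen in kqt-1 and asic-1. Selection favours this direction as well. Both tables of strains that lack lin-65 hold kqt-1, which lay below N2, and the met-2 table does not. Only the met-2 table holds asic-1. In kqt-1 the double mutant and lin-65 differed by 0.02 (SE 0.16, limma adjusted p = 0.906), while both were lower than met-2. In asic-1 the double mutant was lower than met-2, and lin-65 was lower than met-2 by -0.58 (limma adjusted p = 0.0154), a call that was not made with equal library medians or without replicate 1 of lin-65 (adjusted p = 0.0706). Even so, asic-1 stood above N2 in all 9 libraries and kqt-1 below N2 in all 9. In glc-2 the met-2 mean was lowest, although the first met-2 library exceeded every lin-65 library, and without that library lin-65 was higher than met-2 by 0.70 (limma adjusted p = 0.0025), against 0.42 (adjusted p = 0.109) with all libraries.

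**Figure D4:**
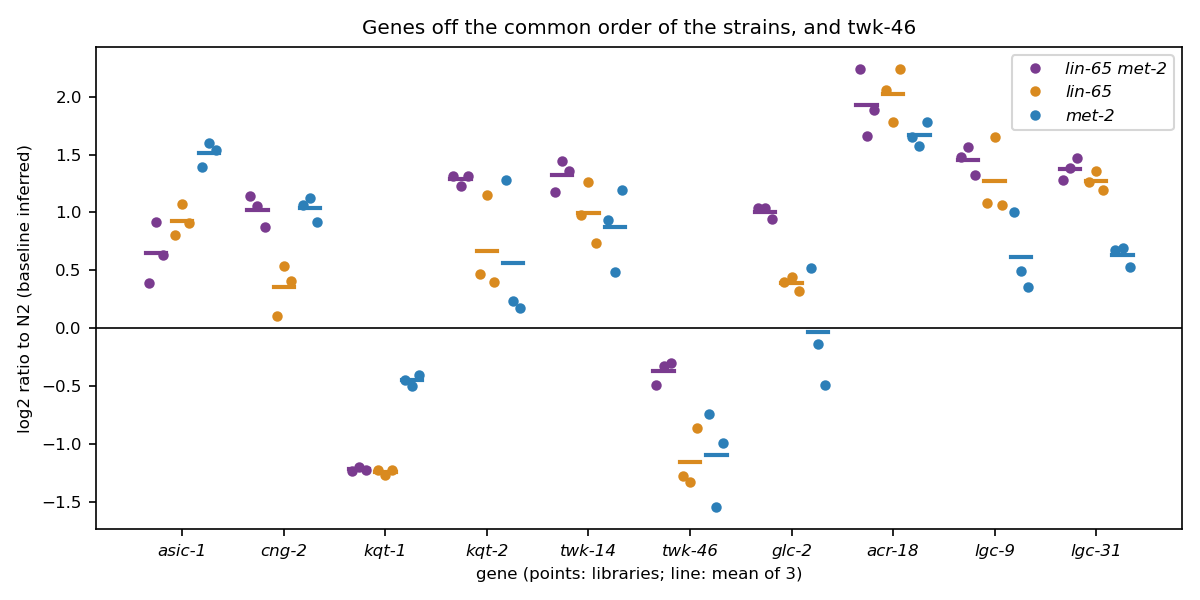
Log2 ratio to N2 in each library for twk-46 and for the 9 members whose strain means left the common order of lin-65 met-2 above met-2 above lin-65. Points are libraries and lines are strain means (n = 3); lgc-9 and lgc-31 are lowest in met-2, kqt-1 and asic-1 are highest in met-2, and twk-46 lies below 0 throughout.

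The annotation places exons of another protein-coding gene on the opposite strand over exons of 16 members, among them kqt-1, asic-1, glc-2 and lgc-31, and whether reads were counted by strand is not given in the sources used here. Without strand, reads of such a pair cannot be told apart. Of the partners of these 4 genes only F21A3.3, which overlaps lgc-31, was listed. It stood at 1.10, 1.11 and 1.22 in lin-65 met-2, 0.15, 0.45 and 0.55 in lin-65, and 1.67, 1.05 and 0.35 in met-2. Its difference between lin-65 and met-2 was -0.64 (limma adjusted p = 0.0427), opposite in sign to that of lgc-31. That call was not made with equal library medians (-0.26, adjusted p = 0.37) or without replicate 1 of met-2 (-0.32, adjusted p = 0.223).

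Channel genes with other names were examined through 13 lists chosen by function, which hold 151 genes, of which 53 were listed. Their medians were 1.63 in lin-65 met-2, 0.90 in lin-65 and 1.32 in met-2. In lin-65 met-2 against lin-65, 46 of the 53 were called higher and 0 lower (0 also at an unadjusted p under 0.05), beside 74.3% and 4.61% of all listed genes. With equal library medians 12 were higher and 5 lower, beside 21.6% and 16.5% of all listed genes. In lin-65 met-2 against met-2, 3 were higher and 1 lower (11.8% and 4.92% of all listed genes), and in lin-65 against met-2, 1 was higher and 24 lower (4.92% and 41.9%). Of the 53, 51 are in the lin-65 met-2 table, 43 in the met-2 table and 15 in the lin-65 table. Selection therefore favours low lin-65 values in these counts, and nothing further is read from them. Of the voltage-gated calcium channel genes 6 of 7 subunits were listed: egl-19, the L-type channel of muscle, averaged 2.48 ± 0.10 in lin-65 met-2, 1.48 ± 0.24 in lin-65 and 2.11 ± 0.30 in met-2 (SD, n = 3 each), and the accessory subunit gene unc-36 averaged 2.33 in lin-65 met-2. All 6 genes on the list of acetylcholine receptor subunits with other names had values, between 1.40 for unc-63 and 1.66 for unc-38 in lin-65 met-2. So did 4 of 10 receptor assembly and clustering genes, led by the chaperone gene ric-3 at 2.33. Gap junction proteins gave 9 of 26 innexins, led by unc-9 at 2.74 in lin-65 met-2. Among DEG/ENaC-associated genes 5 of 16 were listed, led by the stomatin gene unc-1 at 2.56, and among the sodium leak channel complex 3 of 5, led by unc-79 at 2.12. Smaller yields came from TRP channels (5 of 10, led by trpa-2 at 1.81), other potassium channels (6 of 16, led by kcnl-2 at 1.88), potassium channel accessory subunits (2 of 8, led by bkip-1 at 1.25), calcium release channels (2 of 4, led by itr-1 at 1.63), anoctamins and bestrophins (3 of 28, led by best-14 at 2.01), GABA and amine receptors (1 of 7, unc-49 at 1.16) and NMDA receptors with auxiliary subunits (1 of 8, sol-1 at 2.03), all as lin-65 met-2 means. A pair of these genes, named after their values were seen, left the common direction. The sperm TRP channel gene spe-41 was lower in lin-65 met-2 than in met-2, by -0.60 (limma adjusted p = 0.0361), a call lost when any 1 lin-65 met-2 library, or replicate 2 or 3 of met-2, was left out (adjusted p from 0.0688 to 0.127). Only the met-2 table holds spe-41, so selection favours its direction. The two-pore potassium channel gene sup-9 was higher in lin-65 than in met-2, by 0.63 (limma adjusted p = 0.0099), the direction that the germ line and oocyte markers also took. Only the lin-65 table holds sup-9, so selection favours this direction here too.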

How the data were processed

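Total RNA of early embryos was sequenced after removal of ribosomal RNA from 5 µg. The submitters' processing notes name edgeR and ce10. Aligner, counting, annotation, scaling and the rule of selection: not given in the sources used here. Deposited by the authors were 3 tables of log2 values, 1 per mutant, for 9 mutant libraries; a gene in several tables had identical values. No counts were given, so depth is unknown. Symbols and chromosomes came from Ensembl release 115 (2869 of 2949 identifiers matched); its coordinates were not mixed with ce10.

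Contrasts were fitted with limma 3.58.1 in R 4.3.3 without covariates; the fit was tested on simulated data. No gene was filtered out, since no table gives a level. Values are means and SD over 3 libraries. Alternatives were a replicate block, library median centring, 2-group fits, a mean-value trend with robust fitting, each library left out, limits of 1 log2 unit on differences and 2 log2 units against N2, tax-6 left out and, chosen after seeing the data, library weights. The members and lists were chosen with earlier results of these data known. Members with values in every library are the highest and lowest of each family by mean over 9 libraries, up to 5 called members per contrast and direction with the largest differences, and members below 0 in any mutant mean. Per other list up to 3 genes with the highest lin-65 met-2 mean could be named.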

Additional observations from a re-analysis of the deposited data

Results flagged for a closer look

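On the deposited scale, each loss moved twk-46 one way alone and the other way in the second mutant's background. Loss of lin-65 beside absent met-2 (lin-65 met-2 minus met-2) gave a difference of 0.72, against -1.16 for lin-65 alone relative to N2. Loss of met-2 beside absent lin-65 (lin-65 met-2 minus lin-65) gave 0.78, against -1.10 for met-2 alone relative to N2. With library medians made equal, neither difference of twk-46 between mutants was called. Against met-2 the double mutant then differed by 0.46 (limma adjusted p = 0.122), and against lin-65 by 0.14 (adjusted p = 0.576). In asic-1, loss of lin-65 beside absent met-2 gave -0.86, against 0.93 for lin-65 alone relative to N2. On the deposited scale these opposite movements held in every library, but the difference between the effects was not tested, because no N2 library has a column. Selection favours these movements too. The lin-65 and met-2 tables hold twk-46, which lay below N2, and the lin-65 met-2 table does not. Only the met-2 table holds asic-1, which favours its fall from met-2 to lin-65 met-2.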

How the results depend on the processing

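Replicate numbers did not pair the libraries: deviations of same-numbered libraries correlated between -0.213 and 0.042 in 9 pairs, and in 7 of 18 cases a library correlated best with its own number. With the replicate block 5 members were higher in lin-65 met-2 than in met-2 (8.41% of all listed genes), where 9 were without it (11.8%). Of the other channel genes 2 were called, where 4 were without it.

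For lin-65 met-2 minus met-2, members called higher numbered 3 with library median centring, 5 in 2-group fits, 43 with library weights, 1 at a difference of at least 1 log2 unit, and 2 to 40 with a library left out. Of all listed genes 4.85%, 7.39% and 67.5% were higher with centring, 2-group fits and weights, and 2.10% to 59.7% with a library left out. Members called lower numbered 0 at 1 log2 unit and 2 with any library left out, the latter beside 3.09% to 6.71% of all listed genes. Other channel genes called numbered 2 with centring, 2 in 2-group fits, 46 with weights and 0 to 41 with a library left out. For lin-65 met-2 minus lin-65, members higher numbered 8 with centring, 9 at 1 log2 unit and 43 to 50 with a library left out, members lower 5 with centring and 0 with a library left out, and other channel genes 17 with centring and 37 to 48 with a library left out. Of all listed genes 21.6% were higher and 16.5% lower with centring. With a library left out 63.7% to 79.2% were higher and 3.12% to 5.56% lower. For lin-65 minus met-2, members higher numbered 4 with centring, 0 at 1 log2 unit and 1 to 3 with a library left out, and members lower 3, 1 and 10 to 31. Here centring called 12.4% of all listed genes higher and 17.7% lower. Leaving a library out called 4.04% to 5.83% higher and 26.45% to 48.4% lower. Other channel genes called numbered 7 with centring, 15 in 2-group fits and 8 to 30 with a library left out.

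Against N2, members past 2 log2 units numbered 10 in lin-65 met-2, 2 in lin-65 and 4 in met-2. Centring gave 34 in lin-65 past 1 log2 unit and medians of 1.20 in lin-65 met-2 and 1.12 in lin-65. With a library left out, members past 1 log2 unit numbered 51 in lin-65 met-2, 14 to 20 in lin-65 and 30 to 41 in met-2, and the medians ran from 1.49 to 1.52 in lin-65 met-2, 0.72 to 0.86 in lin-65 and 1.03 to 1.30 in met-2. Among the 84 differences of named members, centring turned the sign of 14. Of these, 6 were called with or without centring, all in lin-65 met-2 minus lin-65: acd-2 turned to -0.18, acd-5 to -0.066, glc-2 to -0.024, kqt-1 to -0.62, lgc-31 to -0.54 and lgc-9 to -0.46. The other 8 were called on neither scale. Other settings turned the sign of 6 differences, none of them called on either side: those of acr-15, acr-24 and twk-46 in lin-65 minus met-2, acr-18 in lin-65 met-2 minus lin-65, and cng-2 and twk-8 in lin-65 met-2 minus met-2. Beyond the shift of library medians that centring makes by construction, the cause of these changes was not tested. Unknown depth, an unseen N2 spread and 3 libraries per strain limit all values.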

Other observations

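The 56 members lay on all 6 chromosomes, with 14 on V, 12 on X, 11 on IV, 10 on II, 5 on I and 4 on III. As shares these are 25%, 21.4%, 19.6%, 17.9%, 8.93% and 7.14%, beside 22.4%, 19.9%, 15.7%, 16.7%, 12.2% and 10.3% of all listed genes. An adjacent protein-coding gene in the tables was found for 23 of 56 members (41.1%), beside 1242 of 2828 listed protein-coding genes (43.9%), and no member had another member as its neighbour. One of these neighbours is asp-1, an intestinal aspartic protease gene next to twk-46. Among the 9 members that left the common order of strains, 5 have exons overlapping a gene on the opposite strand.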
